A study of Homo sapiens with 48 samples.

Results

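The 6 libraries described here set SK-MEL-103 melanoma cells silenced for mitofusin 1 directly against the same cells silenced for mitofusin 2. They are 3 libraries labelled siMFN1 and 3 labelled siMFN2, chosen by cell line, siRNA and doxorubicin label out of 48 libraries in the series. In both groups the small interfering RNA (siRNA) was transfected the day before doxorubicin, a topoisomerase poison given at 200 nM for 48 h to bring on senescence, and RNA was taken on day 7. The groups therefore share the line, the drug, its dose and the day of harvest, and differ by the siRNA. Both are transient knockdowns in 1 tumour line, and the siRNA sequences are not given in the sources used here. Beside these 6, values are given where useful for 12 further SK-MEL-103 libraries in groups of 3: siMFN1+2, siMAVS and a negative control siRNA, all with doxorubicin, and proliferating cells with the control siRNA. The labels do not say whether replicates are separate cultures, so p-values measure the spread between these samples, which may be technical.

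MFN1 and MFN2 are paralogous GTPases of the outer mitochondrial membrane that tether neighbouring mitochondria and fuse their outer membranes. MFN2 is also found on the endoplasmic reticulum, where it takes part in contacts with mitochondria, so silencing one or the other removes overlapping but not identical functions. In senescent cells, mitochondrial shape and signalling are known to bear on the secreted inflammatory proteins called the senescence-associated secretory phenotype (SASP).

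The siMFN1 libraries held 65586196, 36604566 and 25068456 counts and the siMFN2 libraries 71851091, 44905432 and 26862564, for replicates 1, 2 and 3. For the cell type markers of this paragraph CPM are counts relative to the raw library total, and elsewhere relative to the scaled library size. The melanoma marker SOX10 lay between 629 and 739 CPM in siMFN1 and between 501 and 571 CPM in siMFN2 cells. The pigment genes MLANA, TYR and DCT had at most 6 counts in any of the 6 libraries. PMEL had at most 0.519 CPM and S100B at most 1.16 CPM. MITF lay between 7.62 and 9.35 CPM in siMFN1 and between 8.04 and 9.87 CPM in siMFN2 cells. The epithelial gene KRT14 was present at 5.49 to 6.10 and 6.11 to 8.67 CPM, while VWF of endothelium and PTPRC of leukocytes had at most 1.43 and 0.983 CPM. Of fibroblast genes, LUM (46.2 to 69.0 CPM in siMFN1, 35.8 to 57.6 in siMFN2) and COL1A1 (40.4 to 68.5 and 46.9 to 71.4 CPM) were present, whereas DCN and COL1A2 had at most 7 counts. Replicate 3 stood apart in both groups: on the first principal component of the 6 libraries, which held 46.8% of the variance, siMFN1 replicates 1, 2 and 3 had scores of -33.9, -35.6 and 9.49, and siMFN2 replicates had 10.5, -1.82 and 51.3. siMFN1 replicate 3 thus fell among the siMFN2 scores on that axis, and the count of called genes is given below with and without each library.

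The silenced genes check the labels. MFN1, on chromosome 3 at positions 179347692 to 179394931 of GRCh38, had 19.9, 20.9 and 14.005 CPM in siMFN1 cells, against 58.0, 56.7 and 60.8 CPM in siMFN2 cells. The 2 groups did not overlap, and MFN1 was 3.18-fold higher in siMFN2 cells (log2 fold change, siMFN1 over siMFN2, of -1.67 ± 0.16 SE, edgeR adjusted p = 7.95e-05). MFN2, on chromosome 1 at positions 11980181 to 12013514, had 96.5, 89.5 and 108 CPM in siMFN1 cells, against 19.8, 21.2 and 20.5 CPM in siMFN2 cells. Again no library crossed over, with a log2 fold change of 2.26 ± 0.11 (edgeR adjusted p = 3.32e-09).

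**Figure D1:**
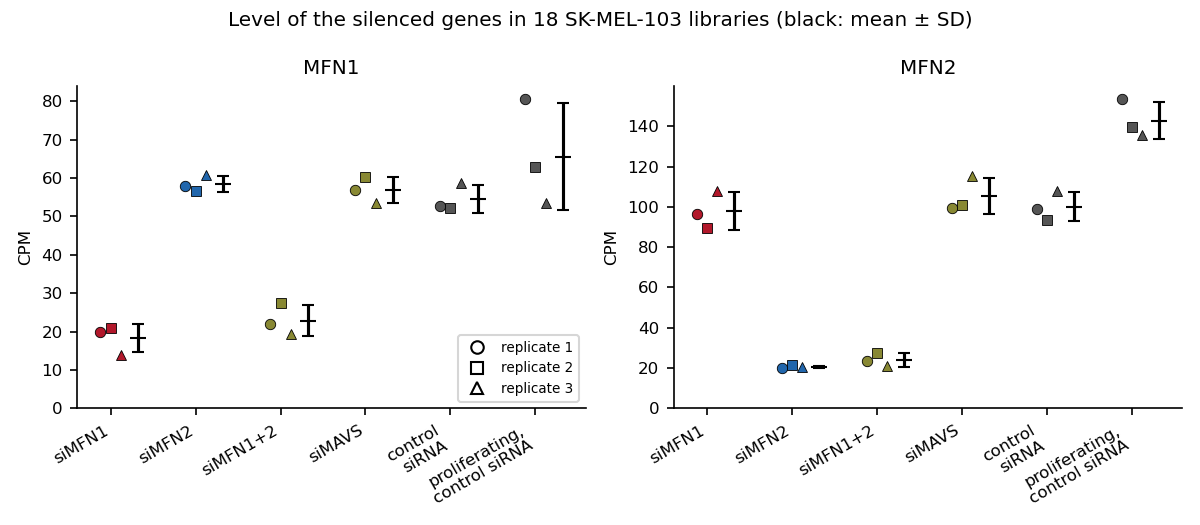
CPM of MFN1 (left panel) and MFN2 (right panel) in each of the 18 SK-MEL-103 libraries, by group along the horizontal axis, with mean ± SD in black beside the points. MFN1 is low in the siMFN1 and siMFN1+2 libraries and MFN2 in the siMFN2 and siMFN1+2 libraries.

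Each siRNA left the other mitofusin near its control level: against the control siRNA, MFN2 had a log2 fold change of -0.03 in siMFN1 cells and MFN1 of 0.10 in siMFN2 cells, with edgeR adjusted p of 0.99 and 1. MFN1 averaged 18.3 ± 3.75 CPM in siMFN1 and 58.5 ± 2.07 CPM in siMFN2 cells, against 54.6 ± 3.64 CPM with the control siRNA (SD, n = 3 each), which puts siMFN1 cells 66.3% below the control mean. MFN2 averaged 98.0 ± 9.35 CPM in siMFN1 and 20.5 ± 0.718 CPM in siMFN2 cells, against 100.1 ± 7.34 CPM in controls, which puts siMFN2 cells 79.5% below. The knockdown was thus partial in both groups. The siMFN1+2 libraries had 22.8 ± 4.13 CPM of MFN1 and 23.8 ± 3.38 CPM of MFN2.

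Which genes separate loss of one mitofusin from loss of the other was asked by testing siMFN1 against siMFN2 across all expressed genes. Of 17945 genes, 20 differed at an edgeR adjusted p below 0.05 (0.111% of genes tested), 14 higher and 6 lower in siMFN1 cells, and 2083 had an unadjusted p below 0.05. Counts of list members at an unadjusted p below 0.05, given below, are to be read against these 2083 of 17945. Apart from the silenced pair, 13 genes were higher and 5 were lower in siMFN1 cells, with absolute log2 fold changes between 0.74 and 3.49, and 9 of these 18 differed at least 2-fold. In all 18 the siMFN1 and siMFN2 libraries did not overlap, as was the case for 3995 of all genes tested (22.3%). The median log2 fold change of all genes tested was 0.015.

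**Figure D2:**
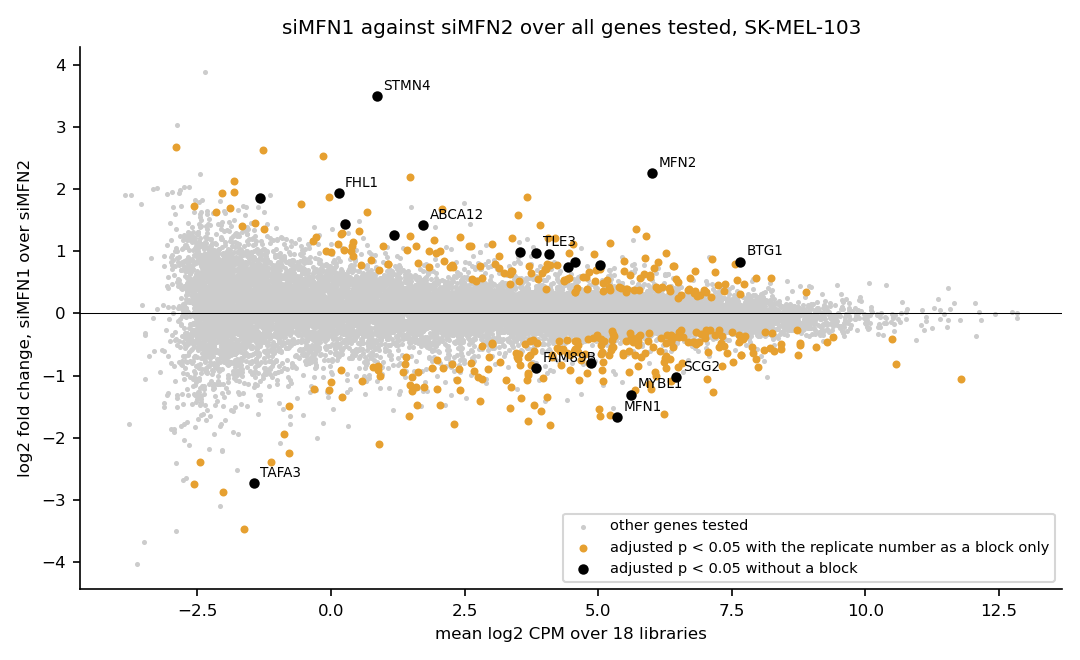
Log2 fold change of siMFN1 over siMFN2 (vertical) against mean log2 CPM (horizontal) for the 17945 genes tested. The 20 genes called without a block are black, and genes called only when the replicate number is a term of the model are orange.

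The number called depended on the libraries and on the model. It was 21 without siMFN1 replicate 3, 7 without siMFN1 replicate 1 and 5 without siMFN1 replicate 2, and it was 7, 13 and 6 without siMFN2 replicates 1, 2 and 3. Of the 20 calls, 16 were among those 21 and 10 among those 13, while the calls of the other fits with a library left out were all among the 20. Doxorubicin replicates that carry the same number deviated from their group means together, while replicates 2 and 3 of the proliferating group did not follow their number. With the number as a block over all 18 libraries 402 genes were called (2.24%), 173 higher and 229 lower in siMFN1 cells, all 20 of the unblocked calls among them. The title of a single siMFN2 library lacks a number, and the library was taken as number 1. Without that library the block fit called 59 of 18483 genes (0.319%), all of them among the 402. MFN1, MFN2, STMN4, FAM89B and TLE3 were called whichever of the 6 libraries was left out.

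STMN4, a stathmin family member that binds tubulin and is best known from neurons, showed the greatest fold change of the 20. It had 8.07, 10.2 and 9.77 CPM in siMFN1 cells, against 0.709, 0.890 and 0.920 CPM in siMFN2 cells. The groups lay far apart and STMN4 was 11.3-fold higher in siMFN1 cells (log2 fold change 3.49 ± 0.42, edgeR adjusted p = 0.00155). The gene was lower in siMFN2 cells than with the control siRNA (7.25 ± 0.698 CPM, edgeR adjusted p = 0.00604), while siMFN1 cells did not pass the test against it (log2 fold change 0.36, adjusted p = 0.99). Its level was also low in siMFN1+2 cells, at 2.40, 2.04 and 0.888 CPM, in siMAVS cells, at 0.929 ± 0.442 CPM, and in proliferating cells, at 0.489 ± 0.485 CPM (SD, n = 3).

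The genes lower in siMFN1 cells included FAM89B and MYBL1. FAM89B, on chromosome 11 at positions 65572349 to 65574198, had 10.3, 10.7 and 10.7 CPM in siMFN1 cells, against 16.9, 21.8 and 19.6 CPM in siMFN2 cells, a log2 fold change of -0.88 ± 0.12 (edgeR adjusted p = 0.00349). MYBL1, which encodes the transcription factor A-MYB, had 25.1, 29.8 and 34.6 CPM in siMFN1 cells, against 71.5, 63.1 and 86.4 CPM in siMFN2 cells, a log2 fold change of -1.31 ± 0.18 (edgeR adjusted p = 0.00523). No library overlapped for either gene, and MYBL1 stayed called in 4 of the 6 fits that left out a library. Both were also lower in siMFN1 than in control siRNA cells (FAM89B log2 fold change -0.83, edgeR adjusted p = 0.00637; MYBL1 -1.15, adjusted p = 0.0186). In siMFN2 cells their log2 fold changes against the same control libraries were 0.06 and 0.16, with adjusted p of 1.

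SCG2, MYL9 and TAFA3 completed the lower group. SCG2, the granin secretogranin II, had 139, 101.7 and 92.0 CPM in siMFN1 cells, against 227, 245 and 206 CPM in siMFN2 cells (log2 fold change -1.02 ± 0.18, edgeR adjusted p = 0.0337). MYL9, a regulatory light chain of non-muscle and smooth muscle myosin, had 23.3, 25.0 and 27.2 CPM in siMFN1 cells, against 42.4, 46.7 and 42.0 CPM in siMFN2 cells (log2 fold change -0.80 ± 0.14, edgeR adjusted p = 0.0252). The control siRNA means, 149 CPM for SCG2 and 35.3 CPM for MYL9, lay between the 2 silencings. TAFA3, a secreted chemokine-like protein, was near the detection floor, at 0.123 ± 0.0683 CPM in siMFN1 and 0.766 ± 0.212 CPM in siMFN2 cells. SCG2, MYL9 and TAFA3 each stayed called in only 1 of the 6 fits that left out a library. HAS3, a hyaluronan synthase with 20.5, 16.05 and 24.5 CPM in siMFN1 cells and 59.2, 43.1 and 88.4 CPM in siMFN2 cells, missed the threshold without a block (log2 fold change -1.64 ± 0.31, edgeR adjusted p = 0.0511) and passed with one (adjusted p = 6.59e-05; 0.00107 without the unnumbered library).

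Among genes higher in siMFN1 cells and expressed at a mean log2 CPM of at least 2 were 4 that act in the nucleus or on protein stability. TLE3, a transcriptional corepressor of the Groucho family on chromosome 15 at positions 70047790 to 70098176, had 18.01, 15.8 and 16.5 CPM in siMFN1 cells, against 8.87, 9.32 and 7.36 CPM in siMFN2 cells (log2 fold change 0.97 ± 0.13, edgeR adjusted p = 0.00406). BTG1, an antiproliferative cofactor, had 310.2, 292 and 261 CPM in siMFN1 cells, against 162, 178 and 146 CPM in siMFN2 cells (log2 fold change 0.83 ± 0.14, edgeR adjusted p = 0.0207). FBXL7, a substrate receptor of an SCF ubiquitin ligase, averaged 48.2 ± 4.06 CPM in siMFN1 and 28.1 ± 2.10 CPM in siMFN2 cells, and CHD7, a chromatin remodeller, 26.6 ± 2.44 and 15.9 ± 1.96 CPM (SD, n = 3). For each of these 4 genes every siMFN1 library lay above every siMFN2 library.

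The remaining higher genes of this expression range were C15orf39, ZDHHC14 and TGFA. TGFA, a ligand of the epidermal growth factor receptor, had 34.9, 32.1 and 36.4 CPM in siMFN1 cells, against 21.5, 20.2 and 16.6 CPM in siMFN2 cells (log2 fold change 0.82 ± 0.15, edgeR adjusted p = 0.0475). ZDHHC14, a protein palmitoyltransferase, averaged 16.7 ± 2.08 CPM in siMFN1 and 8.41 ± 1.08 CPM in siMFN2 cells, and C15orf39 20.2 ± 1.14 and 10.4 ± 1.55 CPM (SD, n = 3). Neither TGFA nor CHD7 kept its call in any fit that left out 1 of the 6 libraries, with adjusted p of at least 0.103 and 0.056 there. BTG1 and ZDHHC14 kept theirs in 2 of those 6 fits, and FBXL7 and C15orf39 in 3.

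A further 7 of the 18 genes lay under a mean log2 CPM of 2, outside the rule for naming genes, and were picked out after their values were seen: STMN4 and TAFA3, above, with FHL1, LAMA4, ABCA12, HGFAC and the unnamed gene ENSG00000234156. LAMA4, a laminin chain of basement membranes, had 3.92, 3.47 and 2.99 CPM in siMFN1 cells, against 1.49, 1.34 and 1.53 CPM in siMFN2 cells (log2 fold change 1.26 ± 0.20, edgeR adjusted p = 0.0151). FHL1, a LIM domain protein of muscle, had 4.41, 3.97 and 2.91 CPM in siMFN1 cells, against 1.31, 0.779 and 0.805 CPM in siMFN2 cells (log2 fold change 1.94 ± 0.33, edgeR adjusted p = 0.0252). ABCA12, a lipid transporter of the epidermis, averaged 9.10 ± 3.49 CPM in siMFN1 and 3.40 ± 0.185 CPM in siMFN2 cells, and HGFAC, a protease that activates hepatocyte growth factor, 2.76 ± 0.825 and 1.04 ± 0.0765 CPM. All 5 were higher in siMFN1 cells with no overlap, and each kept its call in at most 1 of the 6 fits with a library left out.

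**Figure D3:**
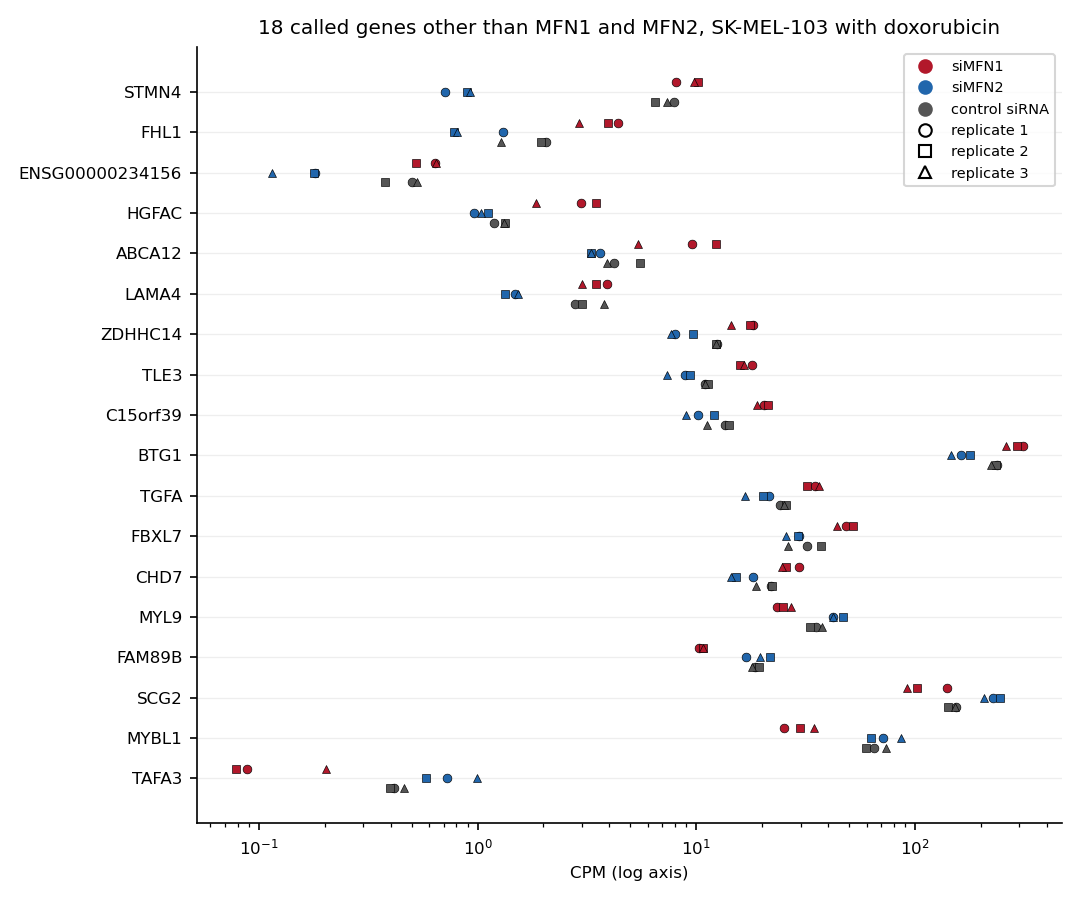
CPM on a log axis of the 18 called genes other than MFN1 and MFN2 in each library, ordered by fold change, with siMFN1 (red) above siMFN2 (blue) and the control siRNA (grey) in each row. The siMFN1 and siMFN2 points of a gene do not overlap, and control points lie between or beside them.

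The control siRNA was left out of the contrast and its levels are set beside it here. For all 18 genes its mean lay between the siMFN1 and siMFN2 means. That held for 50.9% of all genes tested, for 79.8% of the genes whose libraries did not overlap and for 94.8% of the 402 genes called with the block. Against that control, edgeR called 16 genes for siMFN1 (0.0892%; 1 higher, 15 lower) and 3 for siMFN2 (0.0167%; 3 lower). Of the 18 genes, FAM89B and MYBL1 were among the siMFN1 calls and STMN4 among the siMFN2 calls, and these comparisons share their 3 control libraries. The siMFN1+2 mean lay nearer the siMFN1 mean than the siMFN2 mean for 14 of the 18. That held for 56.7% of all genes tested, 62.1% of those without overlap and 76.9% of the 402 genes called with the block. The 4 exceptions are given here with siMFN1, siMFN2 and siMFN1+2 means in that order: STMN4 (9.35, 0.840 and 1.78 CPM), FHL1 (3.76, 0.964 and 1.51 CPM), LAMA4 (3.46, 1.45 and 2.20 CPM) and BTG1 (288, 162 and 212 CPM).

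Genes of the mitofusin pathway other than the silenced pair did not pass the test. Of 31 tested genes of mitochondrial fusion, fission and transport, edgeR called MFN1 and MFN2 with or without the block, and 4 had an unadjusted p below 0.05. OPA1, which fuses inner membranes, averaged 69.6 CPM in siMFN1 and 78.8 CPM in siMFN2 cells (log2 fold change -0.18, edgeR adjusted p = 0.59), and DNM1L, the fission GTPase, 72.4 and 76.9 CPM (-0.09, adjusted p = 0.73). INF2, a formin linked to fission, came closest, at 333 and 266 CPM (0.33, adjusted p = 0.19). In the mitophagy list 0 of 22 genes were called by edgeR without the block or by DESeq2, and 2 had an unadjusted p below 0.05. With the block 1 was called (4.55%, beside 2.24% of all genes): PINK1, the kinase that marks damaged mitochondria. PINK1 had 57.5, 58.6 and 77.2 CPM in siMFN1 cells, against 93.4, 90.3 and 129 CPM in siMFN2 cells (log2 fold change -0.69 ± 0.24, edgeR adjusted p = 0.275; 0.0176 with the block and 0.0917 without the unnumbered library).

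Respiratory chain transcripts mostly had small negative fold changes, and none passed the test. Of 55 nuclear-encoded subunits 50 had a negative log2 fold change and 24 had all siMFN1 libraries below all siMFN2 libraries (43.6%, beside 10.5% of all genes tested). The median was -0.16 and the smallest edgeR adjusted p was 0.227. With 0 called by edgeR with or without the block and by DESeq2, 11 had an unadjusted p below 0.05. UQCRH, a complex III subunit, averaged 127 CPM in siMFN1 and 157 CPM in siMFN2 cells (log2 fold change -0.30), and NDUFB10, a complex I subunit, 65.0 and 77.5 CPM (-0.25). Of the 13 mRNAs encoded by mitochondrial DNA 0 were called by edgeR or DESeq2 and 0 had an unadjusted p below 0.05. Mitochondrially encoded genes took 2.23, 2.75 and 2.11% of counts in siMFN1 cells, against 2.30, 2.47 and 2.50% in siMFN2 cells. These shares overlapped (2.36 ± 0.337% and 2.42 ± 0.107%, SD, n = 3; exact two-sided permutation p = 0.9, where 3 against 3 cannot go below 0.1).

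In the block fit over 18 libraries the most calls in a list fell to extracellular matrix and contractile genes. Of its 29 tested members, 1 was called without the block (MYL9) and 6 with it (20.7%, beside 2.24% of all genes), all 6 lower in siMFN1 cells: TAGLN, LOX, MYL9, TPM1, TPM2 and THBS1. The list's median log2 fold change was -0.37 and 22 of 29 were negative. DESeq2 called 5 members, and the block fit without the unnumbered library called 2, MYL9 and TPM2, as many as in the mitofusin list. TAGLN, the actin-binding transgelin, had 5.87, 8.22 and 14.8 CPM in siMFN1 cells, against 25.4, 25.0 and 31.7 CPM in siMFN2 cells (log2 fold change -1.53 ± 0.36, edgeR adjusted p = 0.128, or 0.0178 with the block). TPM2, a tropomyosin, had 105, 120.3 and 157 CPM in siMFN1 cells, against 177, 195 and 224 CPM in siMFN2 cells (-0.64 ± 0.17, adjusted p = 0.173, or 0.00544 with the block). Neither gene overlapped between groups, while LOX, the collagen crosslinking enzyme, did, at 50.0, 53.2 and 86.9 CPM in siMFN1 and 138, 81.9 and 182 CPM in siMFN2 cells.

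Not every contractile gene was called with the block, and ACTA2 had a positive fold change. ACTA2, smooth muscle actin, averaged 19.7 ± 1.71 CPM in siMFN1 and 11.4 ± 1.59 CPM in siMFN2 cells (log2 fold change 0.79, edgeR adjusted p = 0.344, or 0.114 with the block), and CNN1, calponin, 8.57 ± 5.87 and 11.7 ± 5.14 CPM (-0.47, adjusted p = 0.774). CALD1, caldesmon, averaged 211 ± 35.4 and 360.03 ± 38.1 CPM without overlap (-0.77, edgeR adjusted p = 0.19, or 0.0652 with the block). These 3 were picked out after their values were seen. So was ACTN1, at 686 ± 140 and 834 ± 105 CPM with overlap (-0.28, edgeR adjusted p = 0.445, or 0.0972 with the block). In IMR-90 lung fibroblasts with the same siRNA labels and drug, MYL9, TAGLN and TPM2 had log2 fold changes of -0.05 ± 0.20, -0.06 ± 0.44 and -0.02 ± 0.25. Their levels differed between the lines, with means of 1642, 1783 and 1937 CPM in siMFN1 IMR-90 cells against 25.2, 9.62 and 127 CPM in siMFN1 SK-MEL-103 cells. Tested directly, the difference between the lines did not pass for any of these genes (edgeR adjusted p = 0.657, 0.766 and 0.898).

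SASP genes mostly overlapped between the silencings. Of 18 tested cytokines and chemokines edgeR called 0 without the block, DESeq2 called 0, and 3 had an unadjusted p below 0.05. The block fit called 1 (5.56%, beside 2.24% of all genes). That gene, the monocyte attractant CCL2, had 2.28, 2.89 and 6.13 CPM in siMFN1 cells, against 12.1, 8.19 and 17.8 CPM in siMFN2 cells. The groups did not overlap (log2 fold change -1.79 ± 0.47, edgeR adjusted p = 0.17; 0.00544 with the block and 0.0483 without the unnumbered library). IL6 averaged 2.24 ± 0.628 CPM in siMFN1 and 1.49 ± 0.421 CPM in siMFN2 cells, CXCL8 2.67 ± 0.549 and 2.20 ± 0.593 CPM, and IL1B 98.7 ± 10.9 and 93.8 ± 8.69 CPM. None of the 3 passed, and the 95% intervals of their log2 fold changes ran between -0.02 and 1.19, between -0.38 and 0.90 and between -0.24 and 0.38.

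Among 33 SASP proteases and growth factors, DESeq2 called 0, as did edgeR over the 18 libraries with low counts filtered out and without the block. Of the 33, 5 had an unadjusted p below 0.05, and with only the 6 libraries compared edgeR called 1. The block fit called 1 without the unnumbered library. Over 18 libraries it called 2 (6.06%, beside 2.24% of all genes), both lower in siMFN1 cells. Of these, the serine protease inhibitor SERPINE2, had 150.7, 175 and 210.4 CPM in siMFN1 cells, against 299.7, 287 and 385 CPM in siMFN2 cells. The groups did not overlap (log2 fold change -0.86 ± 0.25, edgeR adjusted p = 0.207; 0.0191 with the block and 0.109 without the unnumbered library).

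Interferon-stimulated genes were called at about the share of all genes. Of 50 tested interferon-stimulated genes 0 were called by edgeR without the block and 8 had an unadjusted p below 0.05. The block fit called 1 gene of the list (2.0%, beside 2.24% of all genes), DESeq2 called 1, and the block fit without the unnumbered library called 0. ISG15 overlapped between the silencings, at 40.5, 34.9 and 40.0 CPM in siMFN1 and 36.5, 49.3 and 37.4 CPM in siMFN2 cells, with 64.7 ± 0.776 CPM in controls. Its log2 fold change was -0.09 with a 95% interval from -0.38 to 0.20. CXCL10 had at most 2 counts in any of the 6 libraries and IFNB1 had 0, so neither was tested.

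The arrest markers overlapped too. CDKN1A, the p21 inhibitor of the cell cycle, averaged 2168 ± 291 CPM in siMFN1 and 1919 ± 128 CPM in siMFN2 cells (log2 fold change 0.18, 95% interval -0.06 to 0.41, edgeR adjusted p = 0.557). MKI67, a proliferation marker, had 0.222, 0.158 and 3.11 CPM in siMFN1 cells and 1.39, 0.245 and 5.60 CPM in siMFN2 cells, against 279.9 ± 80.9 CPM in proliferating cells. Replicate 3 was the highest of each silencing. Over the 57 cell cycle genes tested, log2 fold changes had their median at -0.46, with 49 negative, 3 without overlap (5.26%, beside 22.3% of all genes), 5 at an unadjusted p below 0.05 and 0 called by edgeR with or without the block or by DESeq2. In bulk RNA fewer dividing cells and less of these transcripts per cell cannot be told apart.

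With low counts filtered out, stress, adhesion and lineage genes gave edgeR calls over the 18 libraries only with the block. The share over all genes was 2.24% in that fit. Of 36 genes of the integrated and mitochondrial stress response the block fit called 3, all higher in siMFN1 cells: ATF3 and the amino acid transporter SLC7A5, both targets of that response, and EIF2AK3, the kinase PERK. SLC7A5 had 51.8, 45.4 and 22.8 CPM in siMFN1 cells, against 19.7, 25.6 and 9.66 CPM in siMFN2 cells, overlapping because replicate 3 was the lowest of each group (log2 fold change 1.12 ± 0.52, edgeR adjusted p = 0.426, or 0.0446 with the block). Of 29 integrin and adhesion genes 1 was called, the collagen receptor ITGA2, at 91.8 ± 16.7 CPM in siMFN1 and 51.7 ± 7.17 CPM in siMFN2 cells. Of 35 genes of invasive or undifferentiated melanoma 5 were called, among them NT5E, which was higher, and THBS1, SNAI2 and TPM1, which were lower in siMFN1 cells. Of 19 melanocyte lineage genes 1 was called, GPNMB, a melanosomal glycoprotein, at 3.62 ± 1.11 CPM in siMFN1 and 9.87 ± 0.824 CPM in siMFN2 cells. For these 4 lists, in the order given, edgeR over the 18 libraries with the filter and without the block called 0. DESeq2 called 0, 1, 2 and 1. With only the 6 libraries compared edgeR called 1, 2, 2 and 2. In the fit over 18 libraries without the block, 5, 6, 9 and 5 members had an unadjusted p below 0.05. None of the 9 genes just named was called by the block fit without the unnumbered library, where the smallest of their edgeR adjusted p was 0.0520 (ITGA2). That fit called 0, 0, 1 and 0 members of the 4 lists, the 1 being a gene of the invasive list not named here.

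**Figure D4:**
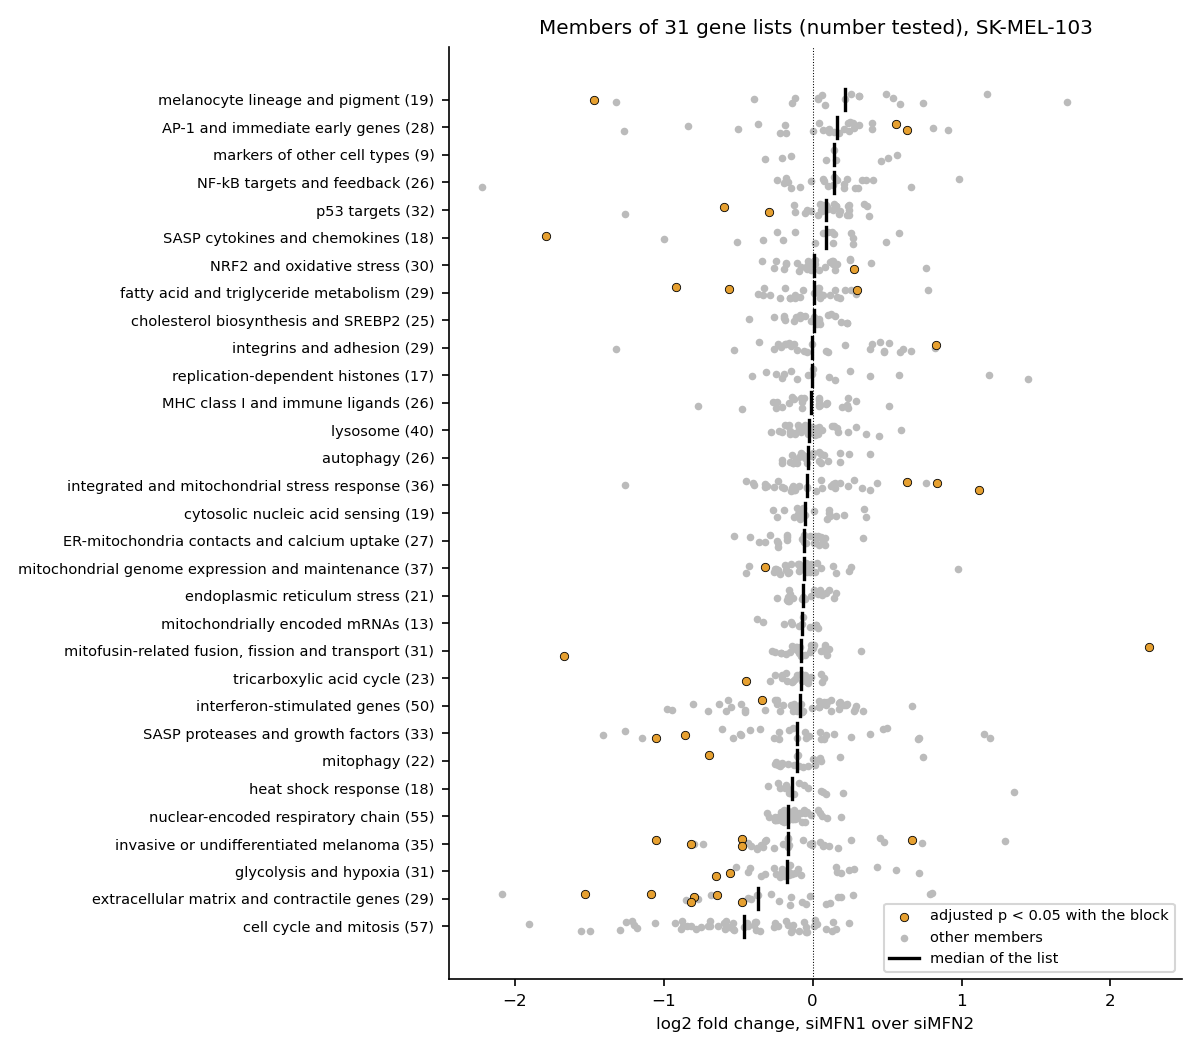
Log2 fold change of siMFN1 over siMFN2 (horizontal) for the tested members of each of 31 gene lists, ordered by the list's median (black bar). Orange points are members called with the replicate number as a block. The extracellular matrix and contractile list holds 6 of them, all below 0.

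The same contrast was available in IMR-90 fibroblasts, in which 184 of 20892 genes were called (0.881%) in a fit over 36 libraries of both lines. That fit called 9 genes in SK-MEL-103, and a fit of the 18 IMR-90 libraries alone, the form that gave the 20 calls in SK-MEL-103, called 37 in IMR-90. MFN1 and MFN2 had log2 fold changes of -3.04 ± 0.25 and 3.05 ± 0.12 there, and the difference between lines did not pass (edgeR adjusted p = 0.168 and 0.0711). Of the 18 other genes called in SK-MEL-103, 11 had the same sign in IMR-90, and the share over all genes was not computed. In the fit over 36 libraries 2 were called for IMR-90 too, FAM89B (-1.53 ± 0.18, edgeR adjusted p = 1.65e-05) and MYBL1 (-0.99 ± 0.20, adjusted p = 0.0126). Whether they are among the 37 is not given here. STMN4 averaged 0.0545 CPM in siMFN1 and 0.0492 CPM in siMFN2 IMR-90 cells. Tested directly, the contrast differed between SK-MEL-103 and IMR-90 for 3 genes (0.0144%), with 1257 at an unadjusted p below 0.05, and none of the 20 was among the 3.

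**Figure D5:**
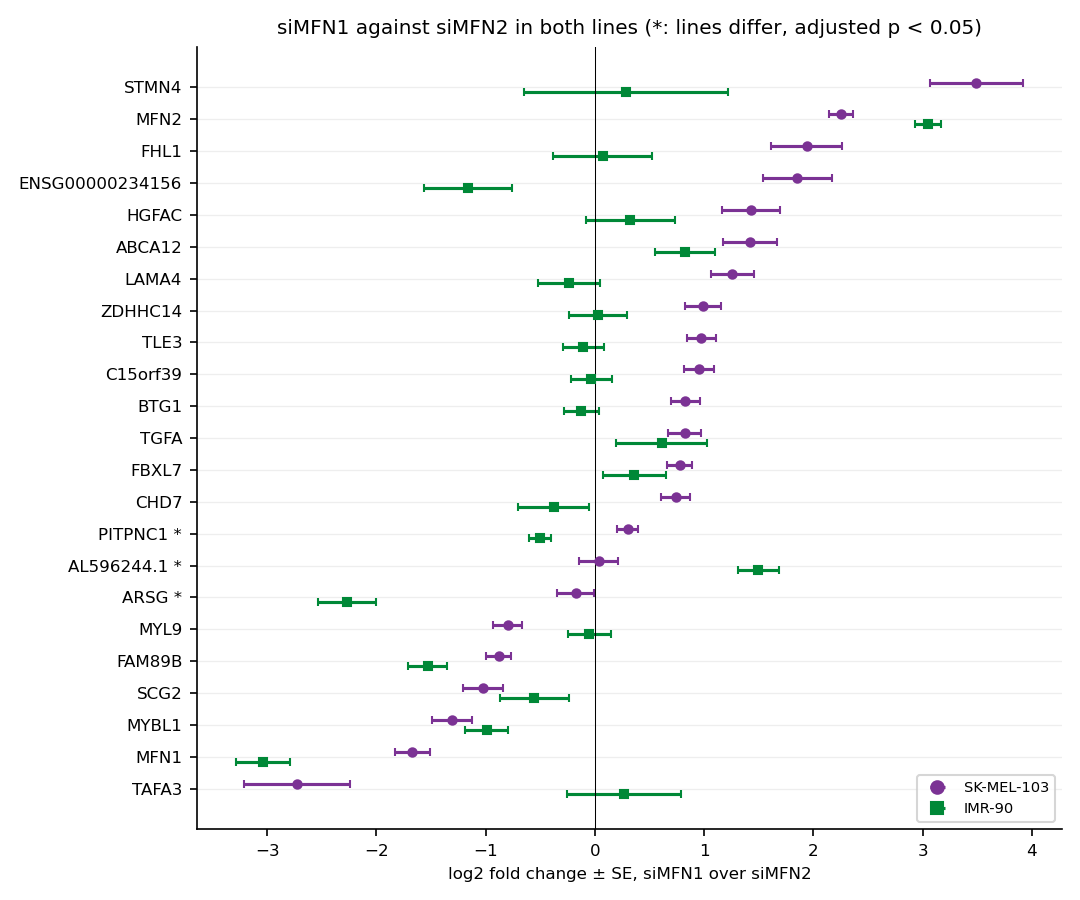
Log2 fold change ± SE of siMFN1 over siMFN2 for the 20 called genes and the 3 genes that differed between lines (starred), in SK-MEL-103 (circles, fit of 18 libraries) and IMR-90 (squares, fit of 36 libraries). FAM89B, MYBL1 and the silenced pair lie on the same side of 0 in both lines.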

How the data were processed

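Messenger RNA was sequenced from 48 libraries, and the 18 SK-MEL-103 libraries of the siRNA experiment were used here, with 18 from IMR-90 for the difference between lines. The table the authors deposited holds raw, unnormalized read counts of 48898 Ensembl genes. Per the submitters' processing notes the steps involved Trim Galore 0.6.7, STAR 2.7.10a, featureCounts and GRCh38; the annotation release and strand setting are not given in the sources used here. Symbols were found for 34499 genes, which left 0.435% of counts without one, and positions are from GENCODE 29, whose match to the release behind the counts is unknown. SOD2 and TREX1 were not analysed here, and some genes among the counts of called genes are not reported here by name.

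Testing used edgeR 4.0.16 with limma 3.58.1 under R 4.3.3. After filterByExpr and TMM scaling, 1 quasi-likelihood fit covered the 6 SK-MEL-103 groups, and a gene was called where its p, adjusted by Benjamini-Hochberg across every gene tested, was below 0.05. CPM are relative to TMM-scaled library sizes, except those of the cell type markers given with the library totals, which are relative to raw totals. The SE divides the fold change by the root of the F statistic, and intervals cover 95%. The scripts were tested on simulated data. Alternatives were DESeq2 1.42.0, RLE factors, no filter, other sets of libraries, the replicate number as a block, and each library left out. Same-numbered siMFN1 and siMFN2 libraries correlated in their deviations from group means (r = 0.198, 0.286 and 0.430 for numbers 1, 2 and 3, over 17945 genes). The numbers were taken to pair the samples, a choice that rests on the same counts that the block fit tests. siMFN1 replicate 1 correlated as well with siMFN2 replicate 2 (r = 0.199), and depth followed the number. Proliferating replicate 2 correlated best with number 3 of the other groups (mean r = 0.133, against -0.078 for number 2). Proliferating replicate 3 correlated best with number 2 (0.037, against 0.0015 for number 3).

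The naming rule holds MFN1, MFN2 and 8 fixed markers (IFNB1 was added to them later), the 12 highest and 12 lowest called genes without overlap whose mean log2 CPM reached 2 (the 6 smallest p where fewer than 6 qualified), up to 3 called members of each list in each direction, and the called differences between lines. The same rule was applied to the block fit after its values were seen. Members, lists and markers were chosen with earlier results of these data known. Libraries hold no molecular identifiers, so depth limits cover counting error only.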

Additional observations from a re-analysis of the deposited data

Results flagged for a closer look

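The contrast of siMFN1 with siMFN2 differed between SK-MEL-103 and IMR-90 for 3 genes by a test of the difference itself, all at an edgeR adjusted p of 0.0311. ARSG, an arylsulfatase, had a difference of 2.10 (log2, SK-MEL-103 minus IMR-90). It averaged 3.91 ± 0.137 CPM in siMFN1 and 4.42 ± 0.599 CPM in siMFN2 SK-MEL-103 cells (SD, n = 3), where it did not pass (log2 fold change -0.18, adjusted p = 0.722), and 0.943 CPM in siMFN1 and 4.50 CPM in siMFN2 IMR-90 cells (-2.27 ± 0.26, adjusted p = 1.62e-05). PITPNC1, a phosphatidylinositol transfer protein, differed by 0.81, with log2 fold changes of 0.30 (adjusted p = 0.243) in SK-MEL-103 and -0.50 (adjusted p = 0.0135) in IMR-90. The long noncoding RNA gene AL596244.1 differed by -1.46, with 0.03 (adjusted p = 0.964) in SK-MEL-103 and 1.497 (adjusted p = 2.81e-05) in IMR-90. The differences of ARSG and AL596244.1 thus lie mainly on the IMR-90 side, while that of PITPNC1 is made of opposite signs in the 2 lines. Leaving out any 1 of the 6 SK-MEL-103 libraries ended all 3 calls, with 0 genes called by edgeR and between 904 and 1445 at an unadjusted p below 0.05, while DESeq2 called 64 genes on all libraries. Groups of 3 are too small for a test of single outlying libraries, so none was made.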

How the results depend on the processing

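The 20 calls were called again by DESeq2 (208 genes called, 104 of them higher in siMFN1), with RLE factors (20), without the filter on low counts (670, 258 higher), with only the 6 libraries compared (177), with the 15 doxorubicin libraries (99) and with the replicate block (402, 173 higher); the block over 17 numbered libraries (59) held 18 of them, without HGFAC and ENSG00000234156. Leaving out 1 library gave 5 to 21 calls. The members of gene lists called numbered 3 without the block, 17 by DESeq2, 80 without the filter, 14 with 6 libraries, 7 with 15, 31 with the replicate block and 8 with the block over 17 libraries. The edgeR counts given above for single lists come from fits with the filter, and how the 80 fall among the lists is not given here. For the difference between lines, 3 genes were called, 64 by DESeq2, 11 without the filter, 44 with the replicate block within each line and 0 with a library left out. MFN1 and MFN2 kept their direction and their call under every alternative run. With 1 library left out, log2 fold changes ran from -0.18 to 0.058 for ISG15, from -0.0041 to 0.16 for IL1B and from -0.025 to 0.093 for AL596244.1, each crossing 0; none was called in the contrast. The mitochondrial share differed by -0.056 percentage points, or -0.014 with ribosomal RNA left out, and by -0.248 to 0.069 with a library left out. Why the count of calls changes between settings was not tested. The libraries of replicate 3 hold the fewest counts, which limits what can be seen for genes under about 1 CPM.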
